A study of Mus musculus with 12 samples.

Results

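The nuclear-encoded respiratory chain subunits are the mouse genes whose symbols start with Nduf, Sdha, Sdhb, Sdhc, Sdhd, Uqcr, Cox4 to Cox8 or Atp5. They were taken by symbol from the Entrez gene identifiers of kidney RNA-seq tables. Of 24532 identifiers, 97 protein-coding genes matched these prefixes, and 95 of them reached 1 TPM in at least 3 of the 12 libraries. TPM (transcripts per 1000000) is a level per transcript length in which each library has the same total, 1000000. The other 2, Cox7b2 and Cox8c, were listed at 0 in every library, and a transcribed pseudogene, Ndufs5-ps, matched by name but is not protein-coding. Closest to the threshold on its inner side were Cox8b, which reached 1 TPM in 6 libraries, and Cox4i2, which did so in 9. Ndufb1, Ndufb4b and Ndufb4c were not analysed here. The prefixes also take in factors that build the complexes, so the 95 members comprised 82 structural subunits, 12 assembly factors and Cox7a2l, a factor that joins complexes III and IV.

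Total RNA came from the kidneys of mice fasted overnight, in 4 groups of 3 libraries. Wild-type mice of strain C57BL/6 received vehicle or GW4064 for 6 h, and mice of the Nr1h4tm1Gonz/J line received the same. The labels give the time for the GW4064 libraries. Nr1h4 is the gene of FXR, the farnesoid X receptor, which is switched on by bile acids, and GW4064 is a small synthetic compound that activates it. The allele is in the germ line, so the receptor is disrupted in every tissue and not in the kidney alone. Separate animals for the libraries within a group are not stated by the labels, and the p-values measure the spread between these libraries, which may be technical. In whole-kidney RNA, fewer cells of a type and less RNA per cell cannot be told apart.

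The respiratory chain sits in the inner mitochondrial membrane. Complex I takes electrons from NADH and complex II takes them from succinate, ubiquinone carries them to complex III, and cytochrome c carries them on to complex IV, which reduces oxygen. Complexes I, III and IV pump protons, and complex V, the ATP synthase, lets them return to make ATP. Most subunits are encoded in the nucleus and imported. The proximal tubule, which makes up most of the kidney cortex, relies on this machinery for sodium and solute reabsorption. Promoters of these genes are known to bind the factors NRF1, the ETS factor GABP, the estrogen-related receptors (ERR) and YY1, and the coactivator PGC-1alpha acts through some of these.

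Promoter windows for the members were taken from RefSeq on GRCm38.p6, from 250 bases before to 50 bases after each annotated start, and 79 of the 95 members matched, with 84 windows. Exact matches were searched on both strands. The NRF1 letters GCATGCGC stood in 14.3% of the member windows against 2.71% of all 32851 windows and 4.75% of the windows of genes tested here. The ETS letters CCGGAAG stood in 26.2% against 8.86% and 16.2%. The ERR letters AAGGTCA, which contain the half-site AGGTCA that many nuclear receptors share, stood in 9.52% against 4.72% and 3.39%. For YY1, AAGATGGC stood in 13.1% against 2.75% and 4.07%. The FXR element searched, AGGTCA followed by 1 base and TGACCT, stood in 0 member windows and in 3 of all windows. These are matches of letters and not binding sites. With so few perfect copies in all 32851 windows, the search cannot show whether the members lack FXR elements. The 5 stretches of 150 bases directly before the start are shown, 5′ to 3′ in the direction of transcription, because these genes are among the members that were lower in the knockout under GW4064 described further on. Capitals mark the matches. Ndufa8 (chr2:36049339-36049488, minus strand) and Atp5g2 (chr15:102671048-102671197, minus strand) hold the NRF1 letters, in Atp5g2 as overlapping matches on both strands. Sdhd (chr9:50603850-50603999, minus strand) holds the ETS letters and Atp5g3 (chr2:73911327-73911476, minus strand) the ERR letters, each on the opposite strand. Cox5a (chr9:57521082-57521231, plus strand) holds no match to any of these letters in the stretch printed.
Ndufa8: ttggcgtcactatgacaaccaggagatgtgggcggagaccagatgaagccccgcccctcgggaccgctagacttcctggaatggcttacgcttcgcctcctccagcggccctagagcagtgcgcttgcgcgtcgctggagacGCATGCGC
Atp5g2: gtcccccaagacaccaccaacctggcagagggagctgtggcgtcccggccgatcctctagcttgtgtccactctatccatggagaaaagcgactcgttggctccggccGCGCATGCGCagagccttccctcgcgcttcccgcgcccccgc
Sdhd: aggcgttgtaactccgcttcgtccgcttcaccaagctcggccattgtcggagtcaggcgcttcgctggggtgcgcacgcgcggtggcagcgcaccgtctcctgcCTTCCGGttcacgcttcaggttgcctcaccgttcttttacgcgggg
Atp5g3: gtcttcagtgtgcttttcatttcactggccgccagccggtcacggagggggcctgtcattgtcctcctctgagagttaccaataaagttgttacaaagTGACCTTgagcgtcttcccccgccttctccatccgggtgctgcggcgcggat
Cox5a: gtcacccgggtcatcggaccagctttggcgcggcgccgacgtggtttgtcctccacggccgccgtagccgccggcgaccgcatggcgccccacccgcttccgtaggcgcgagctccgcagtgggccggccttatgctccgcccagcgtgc

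The libraries held between 2.86 and 4.27 gigabases of sequence over annotated genes. Nr1h4 was at 189 to 267 TPM over the 6 wild-type libraries and at 105 to 134 TPM over the 6 knockout libraries. Every knockout library was below every wild-type library, and the gene-level value includes any exon the allele leaves in place. Slc51a, a bile acid transporter subunit and FXR target, was at 36.4 to 48.1 TPM in wild-type vehicle and at 427 to 514 in wild-type GW4064 libraries, and at 28.6 to 46.5 in the 6 knockout libraries. Proximal tubule markers, 8 genes of which Kap gave most of the signal, summed to between 54463 and 70850 TPM. White fat markers ranged from 1.5 to 37.0 summed TPM and varied within groups, while skeletal muscle markers stayed at or below 0.596.

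Respiratory chain transcripts were abundant and steady across the libraries. The 82 subunits together took 4.43% to 4.80% of all TPM, their median level was 417 TPM, and 73 of them had a mean of at least 100 TPM. The 12 assembly factors were lower, with means between 11.3 TPM for Ndufaf5 and 49.8 TPM for Sdhaf4. Over all 12 libraries the coefficient of variation of a member was 5.01% in the median and under 10% in 81 of 95 members. Among the steadiest was Atp5a1, the alpha subunit of the ATP synthase, at 1.98%. The largest were 104% for Cox8b, 41.9% for Cox6a2 and 38.8% for Cox4i2, all 3 complex IV isoforms at a few TPM or less.

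Within each complex the levels of subunits differed, and widely in all but complex II. Atp5b, the catalytic beta subunit of complex V, had the highest mean of all members, 3541 TPM, and Atp5j, a stalk subunit, was lowest in that complex at 330 TPM. Cox4i1, the widely expressed form of subunit 4, led complex IV at 1743 TPM, with Cox4i2 lowest at 1.18 TPM. In complex III, Uqcrh, the hinge subunit, stood at 945 TPM and Uqcrq at 79.9 TPM. Sdha, which carries the flavin of complex II, stood at 633 TPM and Sdhd, one of its membrane anchors, at 438 TPM. Complex I ran from 835 TPM for Ndufb9 to 18.9 TPM for Ndufs5. The value of Ndufs5 is uncertain, since it was at 12.3 to 24.4 TPM while the pseudogene Ndufs5-ps was at 244 to 289 TPM, and reads of such near-identical copies can be assigned to either. Complex V took 33.6% to 34.4% of the subunit total in every library, complex IV 25.1% to 26.1%, complex I 24.4% to 25.2%, complex III 10.6% to 11.0% and complex II 4.60% to 4.92%. The makeup of the chain by complex thus varied by about 1 percentage point or less between any of the 12 libraries.

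The summed level of all subunits differed by a few percent between groups. In wild type it was 46832, 46618 and 45223 TPM on vehicle and 47986, 47546 and 47007 TPM with GW4064, a mean difference of 2.79% with no overlap. In the knockout it was 47036, 46949 and 46222 TPM on vehicle and 45892, 45192 and 44251 TPM with GW4064, a difference of -3.48%, also with no overlap. The sum thus stood higher with agonist in wild-type libraries and lower with agonist in knockout libraries. On vehicle the knockout differed from wild type by 1.11% with overlapping libraries, and under GW4064 by -5.05% with every knockout library below every wild-type library. No test was made of these sums, since they are scores over chosen members.

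**Figure D1:**
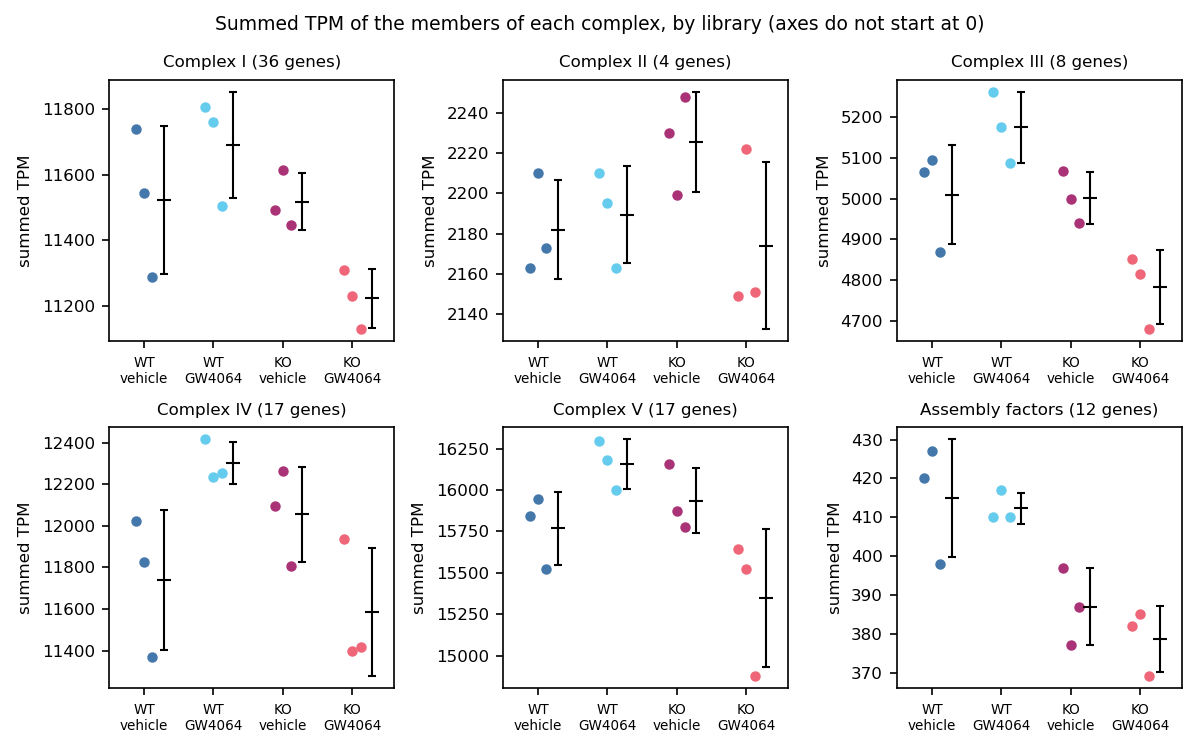
Summed TPM of the subunits of complexes I to V and of the 12 assembly factors; each point is 1 of the 12 libraries, the dash with bars beside the points is the group mean and SD (n = 3), and the axes do not start at 0. The 3 knockout GW4064 libraries lie below the 3 wild-type GW4064 libraries in complexes I, III, IV and V and in the assembly factors, and overlap them in complex II.

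Among the complexes, III and IV differed most under GW4064. Complex III subunits summed to 5175 ± 86.3 TPM (SD, n = 3) in wild-type and 4783 ± 91.0 TPM in knockout GW4064 libraries, a difference of -7.57%. Complex IV stood at 12417, 12233 and 12255 against 11939, 11396 and 11416 TPM (-5.84%), complex V at 16158 ± 150 against 15348 ± 414 TPM (-5.01%) and complex I at 11690 ± 162 against 11224 ± 89.7 TPM (-3.99%). Complex II stood at 2189 ± 24.2 against 2174 ± 41.8 TPM (-0.698%), with overlap. The assembly factors were lower in knockout libraries on vehicle as well, at 387 ± 9.87 against 415 ± 15.1 TPM (-6.81%), and under GW4064 at 379 ± 8.74 against 412 ± 4.30 TPM (-8.12%), with no overlap in either case.

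These sums depend on how libraries are put on a common scale. TPM fixes each library's total, and when libraries were instead scaled by the median ratio of all genes (factors 0.955 to 1.05), the vehicle difference between knockout and wild type became 7.43% for all subunits, with no overlap. The assembly factors then differed by -1.03% on vehicle, with overlap. Under GW4064 the difference for all subunits was -2.87% on that scale and still without overlap, complex I differed by -1.78% with overlap, and complex II turned to 1.60%. The agonist differences kept their directions, at 5.26% in wild type and -4.83% in the knockout.

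Single genes were tested with limma on log2(TPM + 0.5) over all 14488 genes that reached the TPM threshold, with Benjamini-Hochberg adjustment over all of them and an adjusted p under 0.05 as the threshold. Log2 differences below are on this scale with their standard errors. GW4064 in wild type raised 1 member, the complex I assembly factor Ndufaf2, and lowered 0, against a background of 2.48% of all tested genes higher and 2.32% lower. Of the members, 8 had an unadjusted p under 0.05, 8.42% against 19.3% of all genes tested. The members' median log2 difference was 0.029, against -0.034 over all genes tested. A total of 67 of 95 lay above 0, against 5850 of all 14488 genes. Of the 95, 91 lay within 0.25 of 0, which held for 79.3% of all genes.

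Ndufaf2, which acts late in complex I assembly, was at 23.3, 24.5 and 24.8 TPM in wild-type vehicle and 29.7, 30.8 and 30.0 TPM in wild-type GW4064 libraries, a log2 difference of 0.31 ± 0.069 (limma adjusted p = 0.0248). The 2 groups did not overlap. In the knockout it stood at 31.1, 26.2 and 26.1 TPM on vehicle and 27.9, 28.8 and 26.3 TPM with agonist, which overlapped. The difference between the genotypes' responses was -0.31 ± 0.098 (limma adjusted p = 0.112). The wild-type call was lost when any 1 of the 6 wild-type libraries was left out, with an adjusted p of up to 0.0926, and with the white fat marker score in the model (adjusted p = 0.0605). The next subunit was Ndufa4, first assigned to complex I by name and now placed in complex IV, at 1506, 1468 and 1458 TPM on vehicle and 1694, 1591 and 1641 TPM with agonist. Its groups did not overlap, and the difference of 0.15 ± 0.045 missed the threshold (limma adjusted p = 0.0831) but passed with median-ratio scaling (0.19, adjusted p = 0.0436). In the other complexes the lowest p belonged to Uqcrc2, a core subunit of complex III (0.071, adjusted p = 0.256), Atp5g3 (0.11, adjusted p = 0.259) and the complex II assembly factor Sdhaf1 (-0.20, adjusted p = 0.248), none past the limma threshold.

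In the knockout, GW4064 changed 0 members by limma, where 0.0138% of all tested genes passed in either direction. At an unadjusted p under 0.05 there were 13 members, 13.7%, against 10.8% of all genes. The members' median was -0.043 against 0.02 over all genes. A total of 77 of 95 lay below 0, against 6259 of all 14488 genes. The lowest p in complex IV was that of Cox5a (-0.14, adjusted p = 0.256). In complex III it was Uqcr10 (-0.14, adjusted p = 0.30), in complex I Ndufs6 (-0.13, adjusted p = 0.317), in complex V Atp5l (-0.14, adjusted p = 0.315) and in complex II Sdhd (-0.085, adjusted p = 0.435), each by limma. Taking signs alone, 58 of 95 members were higher with agonist in wild type and lower with agonist in the knockout, 19 were lower in both, 9 higher in both and 9 the reverse. Most of these single differences are within the spread of libraries. The same sign patterns were not counted over all genes, so 58 of 95 has no background beside it.

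**Figure D2:**
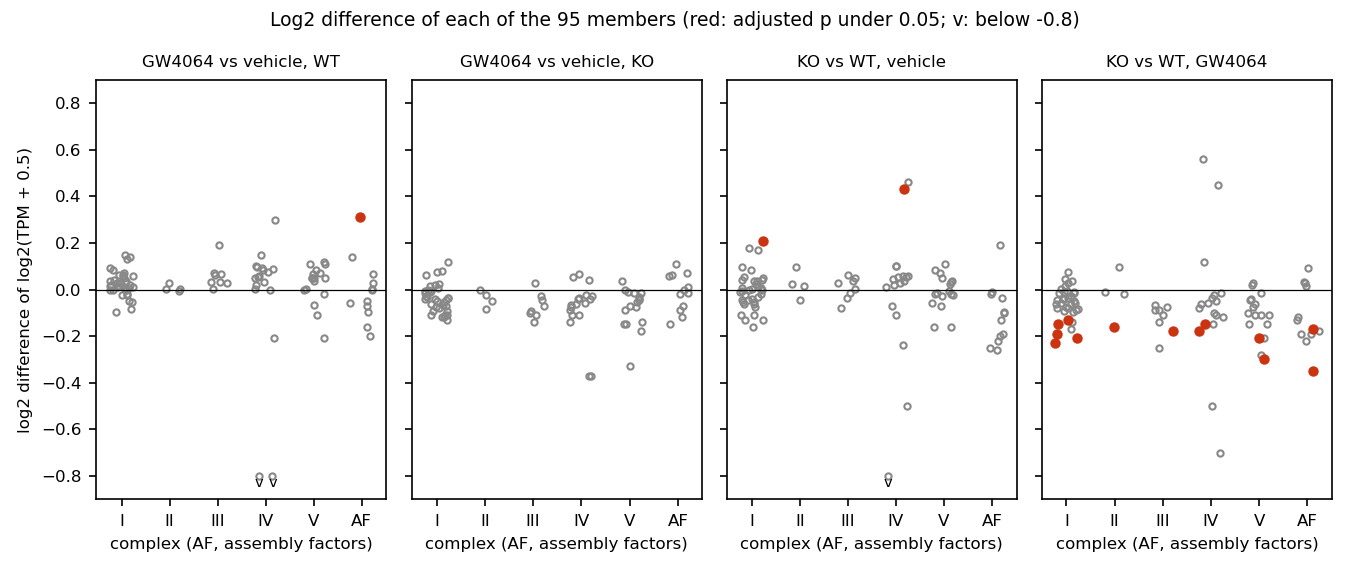
Log2 difference of log2(TPM + 0.5) for each of the 95 members in 4 comparisons, grouped by complex with assembly factors (AF) apart; red points have a limma adjusted p under 0.05, and the letter v marks values below the axis. Red points number 1, 0, 2 and 13 from left to right, and all 13 in the last panel lie below 0.

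The response to GW4064 differed between genotypes for 1 member, Cox5a, where 3.19% of all tested genes passed in either direction. Cox5a encodes a nuclear subunit of complex IV that lies on its matrix side (chr9:57521232-57532426, mm10). It was at 489, 475 and 460 TPM in wild-type vehicle and 499, 528 and 494 TPM in wild-type GW4064 libraries. In knockout libraries it was at 503, 501 and 475 TPM on vehicle and 445, 456 and 442 TPM with agonist. With agonist, every wild-type library was above, and every knockout library below, its own vehicle libraries. Those differences were 0.095 ± 0.040 (limma adjusted p = 0.211) and -0.14 ± 0.040 (adjusted p = 0.256), and neither passed alone. The knockout response minus the wild-type response was -0.23 ± 0.056 (limma adjusted p = 0.0467). Leaving out any 1 library other than knockout vehicle replicate 3 ended this call, and over all alternatives its adjusted p ran from 0.0361 to 0.117.

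Uqcrc2 and Atp5g3, a gene of the membrane ring of the ATP synthase, showed the same arrangement of libraries, above vehicle in wild type and below vehicle in the knockout with no overlap. Their differences in response were -0.14 ± 0.046 (limma adjusted p = 0.125) and -0.19 ± 0.070 (adjusted p = 0.164), and did not pass. How often this arrangement occurs over all tested genes was not counted, so it has no background beside it. For Cox5a it adds no support to the call, which came from a test of the same values. Of the members, 22 had an unadjusted p under 0.05 for the difference in response, 23.2% against 19% of all genes tested. The members' median was -0.067 against 0.051 over all genes. With median-ratio scaling, 3 members passed, Cox5a (-0.29), Atp5l (-0.28) and Ndufa4 (-0.27), where the values are the knockout response minus the wild-type response.

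On vehicle, the knockout differed from wild type in 2 members by limma, both higher, against a background of 3.19% of genes higher and 9.73% lower. At an unadjusted p under 0.05 there were 16, 16.8% of the members against 30.5% of all genes tested. The members' median was -0.0056, against -0.087 over all genes. A total of 45 of 95 lay above 0, against 4311 of all 14488 genes, and 76 of 95 with median-ratio scaling. Ndufs6, a zinc-binding subunit of the NADH-oxidizing arm of complex I, was at 213, 198 and 195 TPM in wild-type and 224, 247 and 229 TPM in knockout vehicle libraries. Its difference was 0.21 ± 0.045 (limma adjusted p = 0.0141) without overlap, and it was lost when wild-type vehicle replicate 3 was left out (adjusted p = 0.0585) or when only these 6 libraries were fitted (adjusted p = 0.0516). Cox7a1, the heart and muscle form of subunit 7a, was at 40.0, 46.2 and 41.2 TPM in wild type and 56.1, 57.2 and 58.5 TPM in the knockout, a difference of 0.43 ± 0.12 (limma adjusted p = 0.0368). That call ended in 6 removals: replicates 1 or 3 of wild-type vehicle, replicate 3 of wild-type GW4064, or any replicate of knockout vehicle (adjusted p up to 0.112).

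The vehicle comparison is the one most moved by scaling. With median-ratio scaling, 13 members passed, all higher in the knockout: Ndufs6, Cox7a1, Atp5l, Sdha, Ndufa10, Ndufaf2, Ndufa4, Ndufa1, Ndufb2, Atp5b, Cox6c, Ndufs1 and Uqcrfs1. Over all genes, the share of calls that were higher moved from 24.7% on the TPM scale to 61.3%. For the other comparisons it moved from 51.7% to 67.0% for GW4064 in wild type, from 38.3% to 48.6% for the knockout under GW4064 and from 46.1% to 27.6% for the difference in response. Atp5b, the most abundant member, was at 3448, 3443 and 3366 TPM in wild-type and 3623, 3599 and 3638 TPM in knockout vehicle libraries, a difference of 0.083 ± 0.038 on the TPM scale (limma adjusted p = 0.162) and 0.17 after scaling (adjusted p = 0.0319).

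Under GW4064, 13 members were lower in the knockout than in wild type and 0 were higher. They are 13.7% of the members, against 11.4% of all tested genes lower and 7.08% higher, so the share is near the background. At an unadjusted p under 0.05 there were 30 members, 31.6% against 31.7% of all genes. The members' median was -0.078 against -0.03 over all genes, and 87 of 95 were within 0.25 of 0, against 70.9% of all genes. A total of 79 of 95 lay below 0, against 8199 of all 14488 genes, and 68 of 95 with median-ratio scaling. The differences were thus small and mostly in 1 direction, less so on the second scale. In each of the 13 the knockout and wild-type libraries did not overlap. That adds no support to the calls, since the 13 were picked by a test of the same values. Some members that did not pass, such as Uqcrh, had no overlap either. By complex, 5 of 36 complex I subunits, 1 of 4 in complex II, 1 of 8 in complex III, 2 of 17 in complex IV, 2 of 17 in complex V and 2 of 12 assembly factors fell.

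In complex I the lowest p belonged to Ndufb6, an accessory subunit of the membrane arm. It was at 319, 325 and 310 TPM in wild-type and 291, 266 and 260 TPM in knockout GW4064 libraries, a difference of -0.23 ± 0.043 (limma adjusted p = 0.00371). On vehicle it was at 308, 301 and 303 TPM in wild type and 303, 290 and 291 TPM in the knockout, which overlapped. Ndufa8, an accessory subunit on the intermembrane-space side, was at 174, 175 and 181 against 150, 158 and 156 TPM, a difference of -0.19 ± 0.040 (limma adjusted p = 0.00701). Its knockout libraries were also below wild type on vehicle, at 156, 164 and 163 against 170, 183 and 175 TPM, where the difference missed the threshold (-0.13 ± 0.040, adjusted p = 0.0553). Ndufc1 and Ndufb5, further membrane arm subunits, fell by 0.21 ± 0.054 and 0.15 ± 0.047 (limma adjusted p = 0.0211 and 0.0409). Ndufs3, a core subunit of the arm that hands electrons to ubiquinone, was at 330, 327 and 323 against 303, 297 and 299 TPM (-0.13 ± 0.037, limma adjusted p = 0.0345).

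Of the assembly factors, Ndufaf4, which works early in complex I assembly, changed most: it was at 46.4, 42.7 and 42.9 TPM in wild-type and 33.4, 36.4 and 33.4 TPM in knockout GW4064 libraries. The difference was -0.35 ± 0.073 (limma adjusted p = 0.00657), and no knockout library reached the wild-type range. On vehicle the genotypes overlapped, at 39.3, 39.8 and 40.7 against 41.7, 33.3 and 37.5 TPM. Ndufaf1, which helps build the membrane arm, fell by 0.17 ± 0.052 (limma adjusted p = 0.0463).

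**Figure D3:**
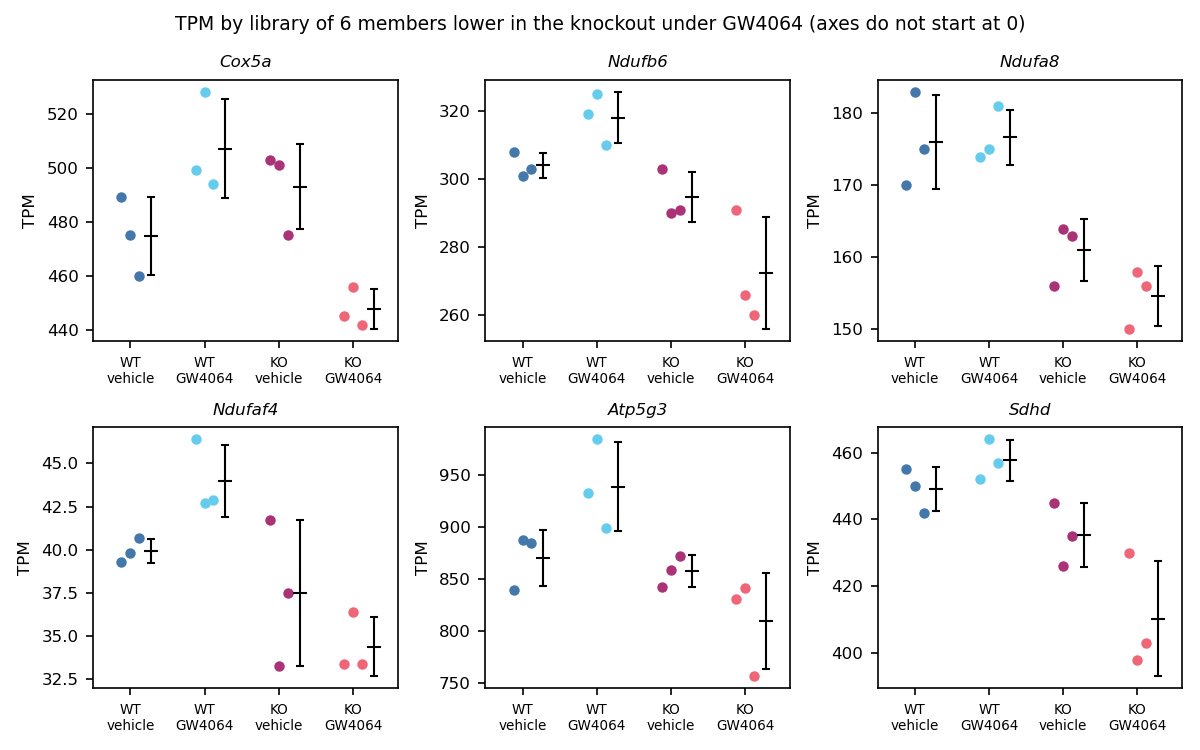
TPM by library of Cox5a, Ndufb6, Ndufa8, Ndufaf4, Atp5g3 and Sdhd, the 6 members whose lower level in the knockout under GW4064 passed the threshold whichever 1 library was left out; the dash with bars is the group mean and SD (n = 3), and the axes do not start at 0. In each panel the 3 knockout GW4064 libraries lie below the 3 wild-type GW4064 libraries.

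Complex II differed by subunit. Sdhd, a membrane anchor, was at 452, 464 and 457 TPM in wild-type and 430, 398 and 403 TPM in knockout GW4064 libraries, without overlap (-0.16 ± 0.037, limma adjusted p = 0.0121). Sdha was above wild type in every knockout library under both treatments, at 622, 623 and 590 against 633, 685 and 645 TPM under GW4064, but the difference did not pass (0.097 ± 0.043, limma adjusted p = 0.147). On vehicle Sdha stood at 601, 615 and 618 against 630, 650 and 684 TPM, with a similar difference (0.098 ± 0.043, limma adjusted p = 0.15). Sdhb, the iron-sulfur subunit, and Sdhc, the other anchor, overlapped under GW4064 with differences of -0.0095 ± 0.037 and -0.02 ± 0.034 (limma adjusted p = 0.897 and 0.74). Sdhaf3 had the lowest p of this complex on vehicle (-0.22 ± 0.072, limma adjusted p = 0.0683).

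In complex III, Uqcr10, a small subunit, was at 820, 796 and 792 TPM in wild-type and 741, 681 and 698 TPM in knockout GW4064 libraries (-0.18 ± 0.046, limma adjusted p = 0.0158), and the groups did not overlap. All 8 complex III subunits had a log2 difference below 0 there, from -0.25 for Uqcrq to -0.06. On vehicle the lowest p was that of Uqcrb (-0.08 ± 0.042, limma adjusted p = 0.218). In complex IV, Cox5a had a difference of -0.18 ± 0.040 (limma adjusted p = 0.00878). Cox6b1, on the intermembrane-space face, was at 1291, 1232 and 1221 against 1136, 1109 and 1121 TPM (-0.15 ± 0.038, adjusted p = 0.017). In complex V both members that fell were genes of the membrane ring. Atp5g3 was at 932, 984 and 899 against 830, 841 and 756 TPM (-0.21 ± 0.049, limma adjusted p = 0.0109). Atp5g2 was at 399, 357 and 402 against 339, 289 and 310 TPM (-0.30 ± 0.077, adjusted p = 0.0172). The catalytic core of complex V stayed close between genotypes, with Atp5b at 0.018 ± 0.038 (limma adjusted p = 0.796) and Atp5a1 at -0.015 ± 0.038 (adjusted p = 0.835).

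Leaving out single libraries ended some of these 13 calls and not others. Cox5a, Atp5g3, Ndufb6, Sdhd, Ndufa8 and Ndufaf4 passed in each removal. The call of Cox6b1 ended without replicate 1 of wild-type GW4064 (adjusted p = 0.0795 by limma), and that of Uqcr10 without that library or knockout GW4064 replicate 2 (up to 0.0653). Atp5g2 was lost without wild-type GW4064 replicates 1 or 3 or knockout GW4064 replicate 2 (up to 0.0668), and Ndufc1 without replicates 1 or 2 of wild-type or 2 or 3 of knockout GW4064 (up to 0.0915). Ndufs3 was lost without any 1 of the 6 GW4064 libraries (up to 0.111). Ndufb5 was lost in 7 removals (up to 0.139): wild-type vehicle replicate 2, wild-type GW4064 replicates 1 and 2, knockout vehicle replicates 1 and 3 and knockout GW4064 replicates 2 and 3. Ndufaf1 passed only in the full set and without wild-type vehicle replicates 1 or 2, and was lost in the other 10 removals (up to 0.168). With median-ratio scaling 7 of the 13 passed, Atp5g3, Ndufb6, Ndufc1, Sdhd, Atp5g2, Ndufa8 and Ndufaf4, while Cox5a reached an adjusted p of 0.0529.

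Proximal tubule markers also differed in the same comparison. Of 8, 4 were lower in the knockout under GW4064, Cubn (-0.40), Slc7a13 (-0.56), Slc34a1 (-0.22) and Lrp2 (-0.19), and Slc13a3 was higher (0.23), each past the limma threshold, with a list median of -0.21. Their summed level overlapped, at 62868 to 68044 TPM in wild-type and 59958 to 65894 TPM in knockout GW4064 libraries. Whether the makeup of tubule cells had a part in the members' differences was not tested.

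Several complex IV subunits exist as a widespread and a tissue-restricted isoform, and the kidney libraries held almost entirely the former. Cox4i2, the lung form, made up 0 to 0.0957% of the Cox4i1 and Cox4i2 total, and Cox6a2, a heart and muscle form, 0.0677% to 0.631% of its pair. Cox6b2, a testis form, made up 0.498% to 0.812%, Cox8b 0 to 0.257%, and Ndufa4l2, a hypoxia-inducible relative of Ndufa4, 0.139% to 0.35%. Cox7a1 was the exception, at 5.67% to 8.91% of the Cox7a1 and Cox7a2 total. In wild type its share was 6.44% ± 0.387 (SD, n = 3) on vehicle and 6.48% ± 0.779 with GW4064, and in the knockout 8.21% ± 0.619 and 6.82% ± 1.21. Skeletal muscle markers were near 0 in all libraries, as given above. Cox7a2l stood at 281 TPM and did not pass in any genotype comparison (vehicle -0.11, limma adjusted p = 0.0748).

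Cox8b, a form found in muscle and brown fat, was steady in wild-type vehicle libraries and varied between the libraries of each of the other 3 groups. In wild type it was at 3.03, 2.90 and 3.15 TPM on vehicle and 0.453, 3.42 and 0 TPM with GW4064. In the knockout it was at 0.334, 0 and 1.77 TPM on vehicle and 0, 0 and 1.24 TPM with GW4064. All 3 knockout vehicle libraries lay below all 3 wild-type vehicle libraries, and the other groups overlapped within each genotype and under GW4064. Its differences were -1.52 ± 0.75 for GW4064 in wild type (limma adjusted p = 0.299) and -1.84 ± 0.75 for the knockout on vehicle (adjusted p = 0.124). The brown fat markers Ucp1, the uncoupling protein, Cidea and Elovl3 summed in the same order of libraries to 6.16, 6.51 and 6.55 TPM, then 0.706, 5.91 and 0.158, then 2.91, 0 and 4.34, and last 4.72, 0 and 3.87. The 4 libraries with more than 2 TPM of Cox8b were the 4 with the highest marker sums, Elovl3 was near 0 throughout, and any part of brown fat in these values was not tested.

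**Figure D4:**
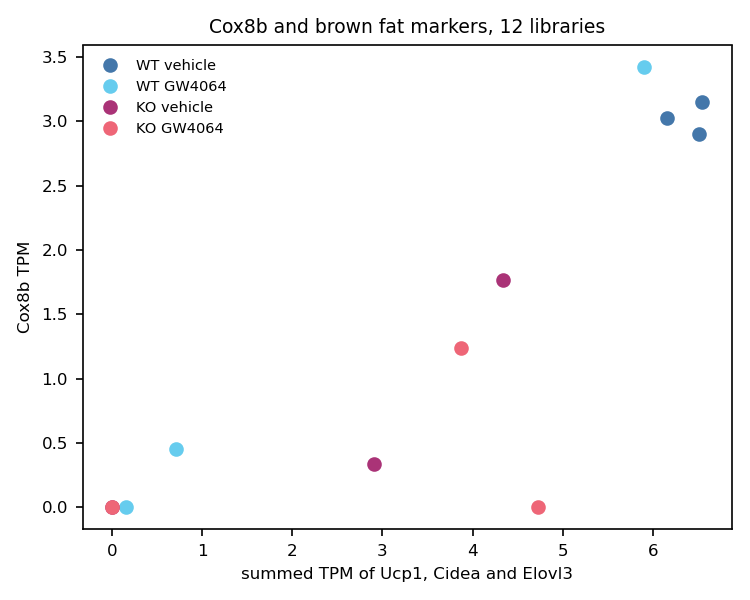
Cox8b TPM against the summed TPM of the brown fat markers Ucp1, Cidea and Elovl3, 1 point per library, coloured by group (replicate 2 of knockout vehicle and of knockout GW4064 overlie at 0). The 3 wild-type vehicle libraries and wild-type GW4064 replicate 2 lie at the upper right, with Cox8b at 2.90 to 3.42 TPM.

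The 3 genes Atp5g1, Atp5g2 and Atp5g3 encode the same mature ring subunit of the ATP synthase with different import sequences. Atp5g3 gave 48.4% to 59.6% of their summed TPM, Atp5g2 20.4% to 24.6% and Atp5g1 19.2% to 31.0%. Atp5g1 was at 567 TPM in wild-type vehicle replicate 2 and 493 TPM in knockout vehicle replicate 1, and at 263 to 357 TPM in the other 10 libraries. Those 2 libraries also had the highest sums over the 3 genes, 1832 and 1704 TPM, against 1328 to 1688 TPM elsewhere. Near-identical copies of these genes can share reads, which makes the Atp5g1 values uncertain.

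Of the members, 4 lie within 10 Mb of Nr1h4 on chromosome 10, the region linked to the targeted allele: Ndufa12 at 4.67 Mb, Uqcr11 at 9.05 Mb, Ndufs7 at 9.20 Mb and Atp5d at 9.31 Mb. None of these 4 passed in any of the 5 comparisons. Uqcr11 came closest, with -0.14 ± 0.047 for the knockout under GW4064 (limma adjusted p = 0.0576).

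Genes around the chain were taken as lists, each read against the background shares given above. In the knockout these were 3.19% higher and 9.73% lower on vehicle, and 7.08% higher and 11.4% lower under GW4064. The list genes were read on the TPM scale only. With median-ratio scaling the share of all genes lower on vehicle was 3.68%, so the vehicle counts below may depend on the scale. Of 23 regulators of mitochondrial biogenesis, 6 were lower and 0 higher in the knockout on vehicle (Ppargc1a, Esrra, Esrrg, Nrf1, Tfb1m and Mterf2), and 3 lower and 1 higher under GW4064. GW4064 changed 0 of them in either genotype. Ppargc1a, which encodes PGC-1alpha, was at 63.3, 62.9 and 57.3 TPM in wild-type and 54.6, 51.6 and 53.5 TPM in knockout vehicle libraries (-0.20 ± 0.045, limma adjusted p = 0.017). Under GW4064 it was at 66.6, 66.3 and 66.7 against 54.8, 53.4 and 53.0 TPM (-0.31 ± 0.045, adjusted p = 0.000692). Its knockout libraries lay below wild type under both treatments.

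Esrra, the gene of ERR alpha, was at 98.9, 93.7 and 94.5 against 87.2, 76.2 and 86.9 TPM on vehicle (-0.20 ± 0.056, limma adjusted p = 0.0381) and at 90.9, 92.2 and 88.4 against 66.6, 72.9 and 69.9 TPM under GW4064 (-0.37 ± 0.056, adjusted p = 0.000727). Esrrg, the gene of ERR gamma, fell by 0.35 ± 0.059 and 0.37 ± 0.059 (limma adjusted p = 0.00384 and 0.00123). Ppargc1b, a relative of Ppargc1a, was higher in the knockout under GW4064 (0.53 ± 0.16, limma adjusted p = 0.0377). Of the 13 members that fell there, all had a promoter window. The ERR letters stood in 2, the NRF1 letters in 3, the ETS letters in 5 and the YY1 letters in 1. Of all 79 members matched, these letters stood in 8, 12, 22 and 11, in the same order. Any link between the letters and the differences was not tested.

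Assembly factors outside the symbol prefixes, 36 tested, had 5 lower on vehicle (Uqcc1, Uqcc3, Coa3, Cox14 and Cox10) and 6 lower under GW4064 (Acad9, Ecsit, Coa6, Cox11, Cox15 and Lyrm7) in the knockout, with 0 higher in either. The largest of these was Lyrm7, an assembly factor of complex III, at -0.49 ± 0.13 (limma adjusted p = 0.0247). Of 16 other subunits and electron carriers, 1 was higher and 1 lower on vehicle (Etfdh, Higd1a), and 2 were higher and 3 lower under GW4064 (Etfdh and Gpd2, then Sqor, Prodh and Higd2a). Etfdh, which passes electrons from fatty acid oxidation to ubiquinone, rose by 0.26 ± 0.060 on vehicle and 0.49 ± 0.060 under GW4064 (limma adjusted p = 0.017 and 0.000173). Sqor, which passes electrons from sulfide to ubiquinone, rose with GW4064 in wild type from 181 to 219 TPM (0.28 ± 0.035, limma adjusted p = 0.000839). Its response differed in the knockout (adjusted p = 0.00366), as did that of Prodh (adjusted p = 0.0496). Cyc1, the cytochrome c1 subunit of complex III, missed the threshold under GW4064 (-0.14 ± 0.044, limma adjusted p = 0.0512).

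Genes that mark mitochondrial content were read against the same background. On vehicle 3.19% of all genes tested were higher and 9.73% lower in the knockout, and under GW4064 7.08% and 11.4%. With lists this short, the counts do not set these genes apart from that background. Of 13 genes of the tricarboxylic acid cycle, 1 was lower in the knockout on vehicle, the citrate synthase gene Cs (-0.17 ± 0.041, limma adjusted p = 0.0225), and 0 passed under GW4064. Of 17 genes of mitochondrial mass and import, 1 was higher and 2 were lower in the knockout on vehicle (Hspa9, then Vdac2 and Tomm40) and likewise under GW4064 (Hspa9, then Hspd1 and Phb). GW4064 changed 0 genes of either list in either genotype.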

How the data were processed

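Kidney total RNA libraries were made with a stranded kit, per the labels. The authors deposited 1 table per library with coverage, FPKM and TPM for each Entrez gene on mm10; the submitters' processing notes name HISAT2, StringTie and Cufflinks, without versions or roles. The deposited TPM were analysed. The deposited FPKM are a constant multiple of TPM within a library, and the deposited coverage gave the depth. No read counts were used. Values of 1 identifier with several entries (113 to 142 per library) were summed.

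Limma 3.58.1 in R 4.3.3 was fitted to log2(TPM + 0.5) of 14488 genes (those at 1 TPM or more in 3 or more libraries), with 1 mean per group over all 12 libraries, a variance trend and Benjamini-Hochberg adjustment. The pseudocount draws differences of low genes toward 0. The fit was tested on simulated data. Python 3.11.15 was used for the rest. Errors are SD for TPM and standard errors for log2 differences. With 3 libraries a side the smallest two-sided p of an exact permutation test is 0.1, so none was used. Alternatives were other pseudocounts, filters and scaling, no variance trend, only the groups compared, a replicate block, a white fat score (the average log2 level of Cidec, Cfd, Plin1 and Adipoq) in the model, and leaving out each library.

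Members, gene lists and alternatives were chosen with earlier results of these data known. Genes named are Cox5a, the extremes of each complex, members past the threshold, isoform sets, members near Nr1h4, the lowest p per complex and comparison, and genes of the lists past the threshold. Genes with low or high coefficients of variation, and Sdha to Sdhd, were named as well. Subunits were assigned to complexes from general knowledge. Replicate numbers were not taken to pair the samples.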

Additional observations from a re-analysis of the deposited data

Results flagged for a closer look

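Cox5a was singled out because its response to GW4064 differed between genotypes by a test of the difference itself. The difference was -0.23 on the log2 scale, knockout minus wild type (limma adjusted p = 0.0467). It was 1.05% of the members, against 3.19% of all tested genes. Leaving out 1 library ended the call in 11 of 12 removals (limma adjusted p up to 0.117). All 3 wild-type GW4064 libraries lay above and all 3 knockout GW4064 libraries below their vehicle libraries. That arrangement adds no support, since Cox5a was picked by a test of the same values.

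The summed TPM of complex V stood 2.46% higher with GW4064 in wild type and -3.69% in the knockout, and that of all subunits 2.79% and -3.48%. In each case every library of one genotype lay above, and every library of the other below, its vehicle libraries. The difference between genotypes in these sums was not tested.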

How the results depend on the processing

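With the replicate number as a block, the counts of members past the threshold were 1, 0, 4, 14 and 1 for GW4064 in wild type, GW4064 in the knockout, knockout on vehicle, knockout under GW4064 and the difference in response, against 1, 0, 2, 13 and 1 without it. Correlations of same-numbered libraries were -0.0748 to 0.0829, so the numbers were not taken to pair samples. Median-ratio scaling gave 2, 13, 7 and 3 for the comparisons other than GW4064 in the knockout. The white fat score gave 0 for GW4064 in wild type, 8 for the knockout under GW4064 and 0 for the difference in response. No filter and no variance trend each gave 1 for the knockout on vehicle and 0 for the difference in response, and fitting only the 6 libraries compared gave 1 for the knockout on vehicle.

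Leaving out 1 library gave 0 to 2 members for GW4064 in wild type, 0 throughout in the knockout, 1 to 4 for the knockout on vehicle, 7 to 14 under GW4064 and 0 to 3 for the difference in response. Under GW4064 the count was 7 without wild-type GW4064 replicate 1 and 8 without knockout GW4064 replicate 2. On vehicle it was 4 without wild-type vehicle replicate 2. The log2 ratio of all summed subunits ran from 0.024 to 0.049 for GW4064 in wild type, -0.064 to -0.037 in the knockout, 0 to 0.025 on vehicle and -0.087 to -0.061 under GW4064. With median-ratio scaling it was 0.074 in wild type, 0.103 on vehicle and -0.042 under GW4064. The cause of these shifts was not tested. Of the 13 members lower under GW4064, Atp5g3, Ndufa8, Ndufaf4, Ndufb6 and Sdhd passed in every alternative run. No direction reversed for members past the threshold or for the sum of all subunits. Depth limits the members at a few TPM or less, of which only Cox8b and Cox4i2 were listed at 0 in any library.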
